A study of Mus musculus with 16 samples.

Results

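Among 16 two-colour arrays of mouse cells, the 8 that carried the cell type M833 fell into sets of 4 that deviated together. Set A held M833 replicates 1 and 2, with the sample in Cy5, and replicates 5 and 6, with the sample in Cy3. Set B held replicates 3 and 4 in Cy5 and replicates 7 and 8 in Cy3. The sets were chosen from the measured values of these same arrays, and no label explains them. Every difference between A and B below is therefore a description, given without a test.

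The other 8 arrays carried the cell type WT, 4 in each dye orientation. The series title names Met mutations in MEFs, the usual short form for mouse embryonic fibroblasts, and does not spell out what M833 means. Strain, age, culture conditions and the number of cultures or embryos behind the arrays are not in the labels. On every array the second dye held one reference RNA, common to the whole series and of unstated make-up.

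Met encodes the receptor for hepatocyte growth factor, a tyrosine kinase that signals through the MAP kinase and PI3 kinase pathways and drives motility and growth. Embryonic fibroblast cultures are prepared from whole embryo bodies, so they start as a mixture of mesenchymal cells from several body regions. They make much of the matrix of connective tissue, such as collagens, proteoglycans and matricellular proteins. Genes of mitosis are transcribed in a burst before division, so in a culture their level follows how many cells are about to divide.

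Values are log2 ratios of sample to reference, a direction that the titles make likely. A ratio of 0 means equal signal in both dyes, and a difference of 1 between arrays means a factor of 2. A feature is a named gene, with its probes averaged, or a probe without a single gene symbol. There were 12761 features, 7114 of them named genes. The arrays of a feature are said to lie apart where both arrays of one set exceeded both of the other in Cy5 and again in Cy3, in the same direction. The interquartile range of the ratios over probes was 0.404 to 0.487 on the arrays of A and 0.414 to 0.557 on those of B. By the numbers in the titles, 1 array of A and 2 of B came from a second run of slide numbers, all in Cy3. In the Cy5 orientation all M833 arrays were from the first run. The labels do not say which arrays shared a culture, an RNA preparation or a labelling.

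The sets were much alike in their main pattern. Any pair of M833 arrays correlated over features with r between 0.905 and 0.974. After the dye and the M833 mean were taken out, the 8 pairs of arrays of the same set and opposite dye correlated with r from 0.026 to 0.239, all above 0. The 8 pairs of different sets and opposite dye gave r from -0.195 to 0.028, with 2 above 0. Because the mean within each dye was taken out, values above 0 in pairs of the same set push the other pairs below 0 on average. The second range is thus no separate observation. Since the sets were picked for this pattern, these values only describe it. The split took up 22.5% of the sum of squares among M833 arrays within dye. Any split takes up some share, and a split picked from the values tends to take up more. The arrays lay apart for 1695 features, 13.3% of all. Set A was higher for 761 of them, 5.96% of all features, and lower for 934, 7.32%. Centring each array on its median turned this split to 954 higher and 753 lower, and scaling the arrays gave 694 and 820. Most differences were small: the median size was 0.127 among features lying apart and 0.053 over all. A factor of 1.5 was reached by 28 features, 14 of which lay apart.

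The fibroblast label was checked against its markers. The intermediate filament gene Vim, at 0.81 ± 0.10 in A and 0.89 ± 0.09 in B (SD over 4 arrays after adjustment for dye), and the PDGF receptor gene Pdgfrb, at 0.92 ± 0.17 and 1.17 ± 0.12, were above the reference in both sets. The collagen gene Col1a1 was close to it, at -0.20 ± 0.04 and -0.11 ± 0.10. Other members of the list were below it: Col1a2 was at -1.04 in A and -0.67 in B, and Col3a1 at -1.43 and -1.16. The mean of the 9 measured fibroblast markers was below the reference on every M833 array, at -0.85 to -0.53 in A and -0.72 to -0.40 in B, and at -0.51 to -0.11 on WT arrays. The macrophage genes were below it: the mean ratio of 8 measured macrophage and leukocyte markers was -1.42 to -1.25 on arrays of A, -1.66 to -1.27 on arrays of B and -0.54 to -0.33 on WT arrays, and 0 of the 8 lay apart between the sets. The mean of 8 red cell and liver markers was -4.59 to -4.47 in A and -4.68 to -4.43 in B. None of the measured endothelial (5 genes), neural and glial (7) or skeletal muscle markers (3) lay apart. Over all features 13.3% lay apart, so a count of 0 among so few genes does not show that the sets were alike in these cell types. In bulk RNA a smaller share of a cell type and less of its RNA per cell cannot be told apart.

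Sfn, Ptn, Rspo2 and Col6a1 were given as marker genes of the split. Sfn encodes 14-3-3 sigma, an adaptor protein of epithelial cells that p53 induces. Its ratio was -1.24 and -1.24 (Cy5) and -1.39 and -1.36 (Cy3) on the arrays of A. On those of B it was -1.89, -1.77, -2.03 and -1.98. All arrays of A lay above all of B, by 0.61 ± 0.04 (SE, n = 4 arrays per set), and the difference was 0.59 in Cy5 and 0.63 in Cy3.

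Ptn encodes pleiotrophin, a secreted heparin-binding growth factor. Its ratio was 0.02, -0.01, 0.12 and 0.12 on the arrays of A and 0.43, 0.38, 0.52 and 0.57 on those of B. Here A lay below B throughout, by -0.42 ± 0.03. Rspo2, whose product R-spondin 2 strengthens Wnt signalling by sparing its receptors, was at 0.63, 0.72, 0.78 and 0.47 in A and at 1.17, 1.14, 1.18 and 1.37 in B, a difference of -0.56 ± 0.08. Col6a1, for a chain of the microfibrillar collagen VI, stood at -2.01, -1.98, -1.30 and -1.26 in A and at -1.63, -1.71, -0.81 and -0.79 in B. Its dye orientations differed more than its sets did, so that the sets overlapped when dye was ignored and lay apart, by -0.40 ± 0.04, once dye was matched.

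WT arrays spread much more widely for the same genes. Sfn ran from -3.45 through a median of -2.07 to -0.76, Rspo2 from 0.58 through 1.58 to 2.77, Ptn from -0.36 through 0.53 to 1.56, and Col6a1 from -2.50 through -1.11 to 0.38. The ratios of both M833 sets lay inside the WT range for these genes, except that 1 array of A was below it for Rspo2 (0.47).

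**Figure D1:**
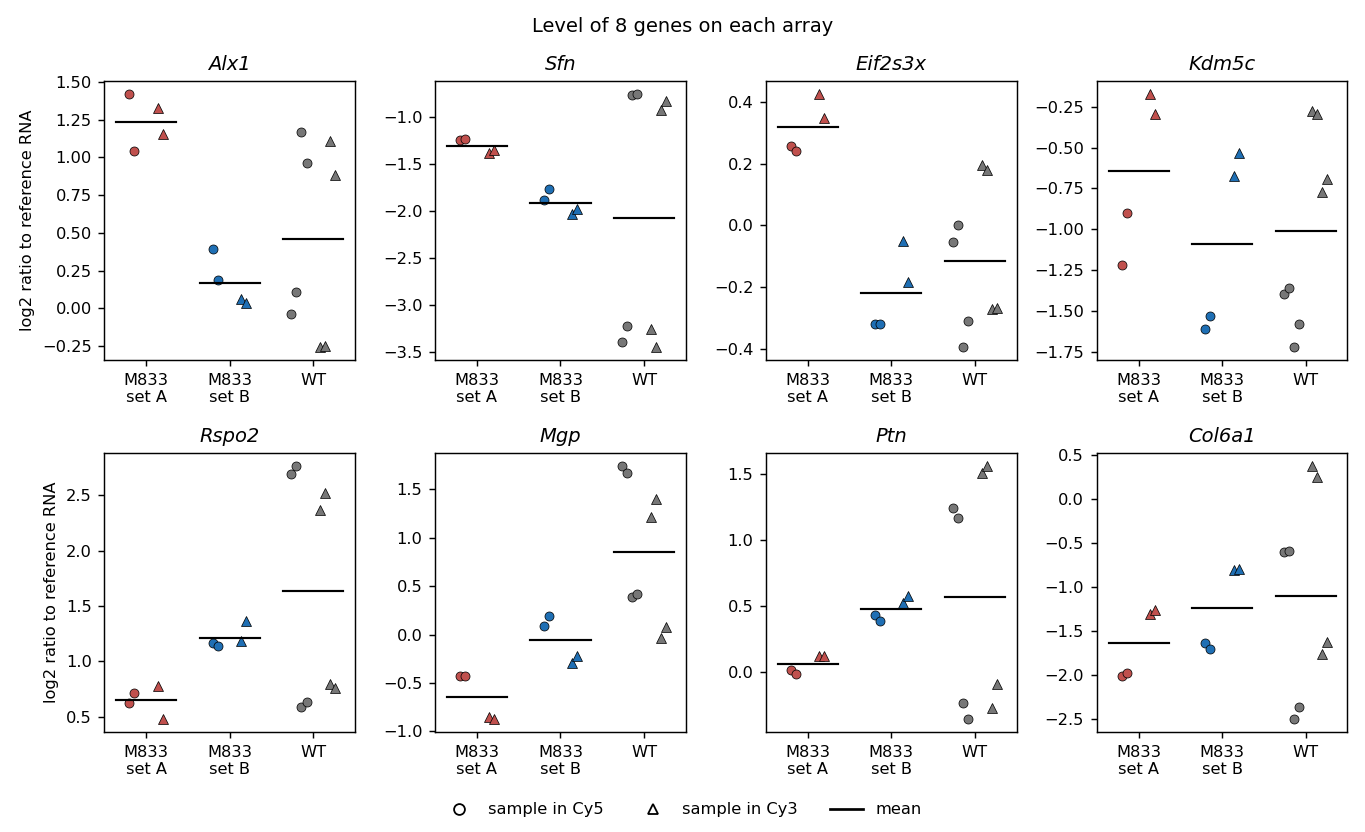
Each panel plots the log2 ratio to the reference RNA of 1 gene on every array, with circles for samples in Cy5, triangles for samples in Cy3 and a line at the mean of each group. Sfn lies between -1.39 and -1.24 on the arrays of set A and between -2.03 and -1.77 on those of set B, while the 8 WT arrays run from -3.45 to -0.76.

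The largest difference of any named gene lying apart was that of Alx1, a homeodomain transcription factor gene of facial and limb mesenchyme. It was at 1.42, 1.04, 1.33 and 1.16 in A and at 0.40, 0.19, 0.06 and 0.04 in B. All arrays of A exceeded all of B, by 1.07 ± 0.10, or 2.09-fold. Rgs17, for a regulator of G protein signalling, was at 1.50, 1.46, 1.22 and 1.31 in A and at 0.77, 0.70, 0.61 and 0.62 in B, 0.70 ± 0.04 apart. Xrcc1, for a scaffold of single-strand break repair, held nearly constant within each set: -0.90, -0.92, -0.91 and -0.95 in A against -1.56, -1.67, -1.55 and -1.62 in B. That is a difference of 0.68 ± 0.04.

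Cdkn1c, the imprinted gene of the cyclin-dependent kinase inhibitor p57, was 0.56 ± 0.06 higher in A, with -2.54, -2.65, -2.07 and -2.21 against -3.06, -3.17, -2.62 and -2.83. Aif1l, for an actin-binding protein, was 0.52 ± 0.07 higher. Perp, a p53 target whose product sits in desmosomes, was at -1.98, -2.29, -2.34 and -1.32 in A and at -2.54, -2.56, -2.57 and -2.94 in B. Its difference of 0.67 ± 0.22 was less even than the others, being 0.41 in Cy5 and 0.93 in Cy3, and came to 0.41 without M833 replicate 6. The remaining genes among the 15 largest higher in A were Slc44a4 (0.56), Bex4 (0.56), Eif2s3x (0.54), Erdr1 (0.47), the platelet chemokine gene Ppbp (0.45), Xlr3c (0.44), Kdm5c (0.44) and the olfactory receptor pseudogene Olfr75-ps1. The last rested on 1 array: it was at -2.19 on M833 replicate 3 and between -0.09 and 0.13 on the other 7, and its difference went from 0.61 ± 0.43 to 0.08 without that array and to 0.91 without M833 replicate 4.

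Of the 15 largest differences in the other direction, several belonged to genes of cartilage and matrix. Col2a1, the main cartilage collagen gene, was far below the reference everywhere, at -3.71, -3.43, -3.10 and -2.71 in A and at -3.10, -2.98, -2.14 and -2.22 in B. Its difference was -0.63 ± 0.10. Mgp, whose product keeps matrix from mineralising, was at -0.43, -0.43, -0.85 and -0.88 in A and at 0.09, 0.19, -0.29 and -0.22 in B, which is -0.59 ± 0.04. All arrays of A lay below all of B. Matn2, for the matrix adaptor matrilin 2, was lower in A by -0.46 ± 0.10.

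Trib3, a pseudokinase gene that ATF4 induces under stress, was at 0.84, 0.74, 0.73 and 0.83 in A and at 1.50, 1.04, 1.29 and 1.26 in B. Its difference was -0.49 ± 0.09. Hoxb3, which specifies position along the body axis, was at 0.49, 0.21, 0.57 and 0.44 in A against 0.91, 0.78, 0.98 and 0.97 in B, -0.48 ± 0.07. The positional genes Alx1 and Hoxb3 thus differed in opposite directions, and of 9 such genes the homeobox cofactor genes Pbx3 (-0.19) and Meis1 (-0.17) were also lower. Zc3hc1 was at -0.16, -0.30, -0.32 and -0.39 in A and at 0.34, 0.38, 0.11 and 0.23 in B, on either side of the reference. The further genes among the 15 were Rspo2 and Ptn, the Arf GTPase activator gene Arap1 (-0.56), Plac9a (-0.48), the phosphodiesterase gene Pde1a (-0.47), the lysosomal amidase gene Aga (-0.44), the transcription factor gene Klf4 (-0.42), the secreted glutathione peroxidase gene Gpx3 (-0.42) and Gstm1. Gstm1, for a glutathione transferase, was at -1.62 on M833 replicate 1 and between -0.74 and -0.40 on the other 7. Its difference moved from -0.46 ± 0.19 to -0.23 without that array.

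**Figure D2:**
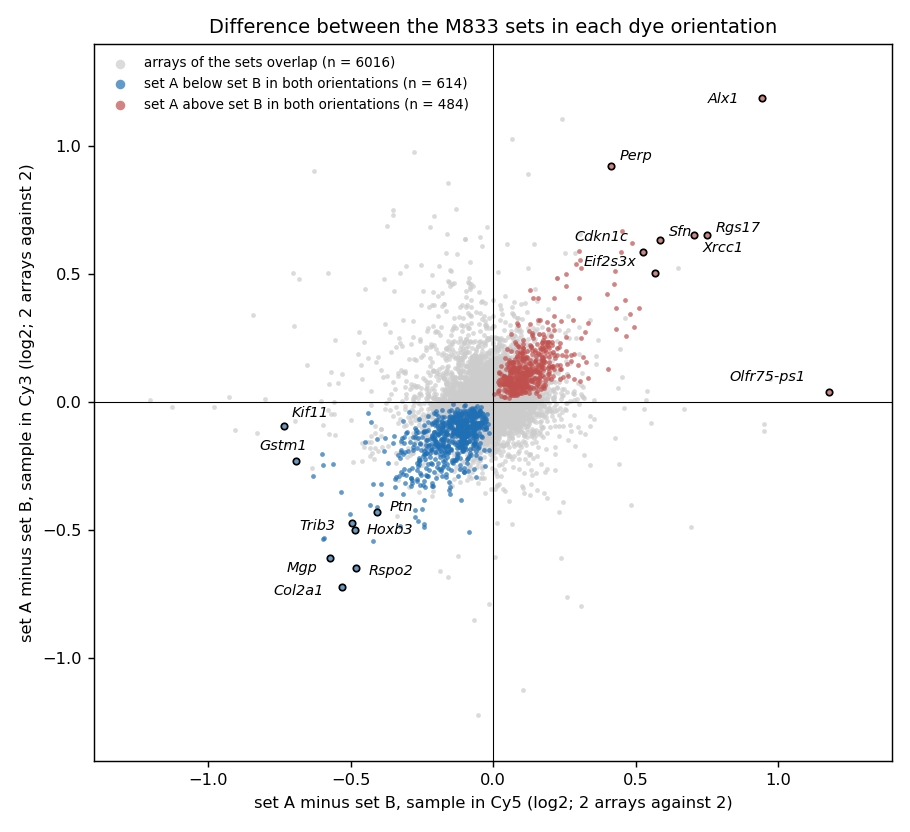
Each point is a named gene, with its difference between set A and set B measured on the Cy5 arrays (x axis, log2) and on the Cy3 arrays (y axis, log2). The 484 red genes were higher and the 614 blue genes lower in set A with arrays lying apart in both orientations. Alx1 stands out at the upper right with 0.94 and 1.19, while Olfr75-ps1 and Kif11 differ in the Cy5 orientation and hardly in Cy3. A further 5 genes lie beyond the axes, which end at 1.4 in size.

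Over all features the difference in Cy5 and the difference in Cy3 correlated with r = 0.254 (rho = 0.265, n = 12761 features, which share arrays and the reference). The 30 genes named above were picked for agreement between orientations, so their agreement is no evidence of it.

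Among lists of 8 or more genes, that of mitosis had the largest share lying apart in one direction. Of 35 measured, 21 were lower in A with arrays lying apart (60.0%, against 7.32% of all features), 0 were higher, and all 35 had a negative difference. The median difference was -0.143, against -0.005 over all features. With the arrays scaled to one spread, 13 lay apart and 33 of 35 were negative, with a median of -0.145. The mean ratio of the 35 genes was 0.20, 0.17, 0.16 and 0.14 on the arrays of A and 0.36, 0.34, 0.30 and 0.31 on those of B, with no overlap. Ttk, for the spindle checkpoint kinase MPS1, was at 0.69, 0.58, 0.62 and 0.62 in A and at 0.99, 0.82, 0.91 and 0.86 in B, a difference of -0.26 ± 0.05. Ccnb2, for cyclin B2, was at 0.05, -0.02, -0.16 and -0.17 in A and at 0.40, 0.17, 0.06 and 0.11 in B, -0.26 ± 0.05. Pbk, a mitotic kinase gene, differed by -0.29 ± 0.06. The largest value, -0.41 ± 0.25 of the spindle motor gene Kif11, rested on M833 replicate 2, at -1.10 against 0.09 to 0.35 on the other 7 arrays, and was -0.11 without it. Other members lying apart included the kinase genes Aurka (-0.23), Bub1b (-0.22) and Plk1 (-0.12), the anaphase activator gene Cdc20 (-0.21), the kinesin gene Kif2c (-0.24) and the topoisomerase gene Top2a (-0.17). The proliferation marker Mki67 (-0.12) and the kinase gene Cdk1 (-0.07) did not lie apart.

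Of 27 measured genes of DNA replication, 3 were lower in A with arrays lying apart (11.1%, beside 7.32% of all features), namely the ligase gene Lig1 (-0.26), the helicase subunit gene Mcm5 (-0.16) and the ribonucleotide reductase gene Rrm1 (-0.10). The licensing factor gene Cdt1 was higher by 0.07, 1 of 27 (3.70%, beside 5.96%). Their median was -0.05. Cdkn1c, the kinase inhibitor gene described above, was higher in A.

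Promoters of mitotic genes are known to carry a cell cycle element called CHR together with CCAAT boxes, to which the DREAM complex and NF-Y bind. RefSeq promoter windows (GRCm38.p6, 250 bases before to 50 after the start) were available for 31 of the 35 genes and were searched on both strands for the letters TTTGAA and CCAAT. The first was in 24 of 31 windows (77.4%) and in 16 of 19 of members lying apart (84.2%), against 18.1% of 27025 promoters. The second was in 24 of 31 (77.4%) and in 16 of 19 (84.2%), against 37.9%. The windows of Ttk, Ccnb2 and Kif11, which had 3 of the 4 largest differences of the list, are shown 5′ to 3′ on the gene's strand, with matches to either motif on either strand in capitals. The matches within them did not overlap each other. Ttk lies on the plus strand at chr9:83834439-83834738, Ccnb2 on the minus strand at chr9:70421505-70421804 and Kif11 on the plus strand at chr19:37376132-37376431.
Ttk: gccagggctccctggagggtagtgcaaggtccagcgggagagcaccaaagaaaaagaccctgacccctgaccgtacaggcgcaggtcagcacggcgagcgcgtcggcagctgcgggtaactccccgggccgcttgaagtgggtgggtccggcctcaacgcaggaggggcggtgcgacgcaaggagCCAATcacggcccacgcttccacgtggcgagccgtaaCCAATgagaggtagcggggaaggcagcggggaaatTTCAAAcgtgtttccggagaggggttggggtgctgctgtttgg
Ccnb2: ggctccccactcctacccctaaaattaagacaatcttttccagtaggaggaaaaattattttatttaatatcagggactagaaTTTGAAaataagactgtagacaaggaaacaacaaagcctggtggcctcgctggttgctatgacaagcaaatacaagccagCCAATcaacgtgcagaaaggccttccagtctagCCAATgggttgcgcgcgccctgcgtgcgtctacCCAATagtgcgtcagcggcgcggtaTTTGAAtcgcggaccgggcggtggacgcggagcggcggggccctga
Kif11: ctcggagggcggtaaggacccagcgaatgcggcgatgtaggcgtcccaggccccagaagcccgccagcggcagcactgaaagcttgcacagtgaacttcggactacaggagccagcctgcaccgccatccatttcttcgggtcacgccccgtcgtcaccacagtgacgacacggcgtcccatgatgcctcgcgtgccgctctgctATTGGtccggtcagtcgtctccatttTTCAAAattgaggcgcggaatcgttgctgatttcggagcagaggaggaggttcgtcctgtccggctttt
All 3 windows hold both motifs close to the start, Ccnb2 with 5 matches, Ttk with 3 and Kif11 with 2. A match describes the letters only.

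Many matrix genes did not lie apart, and most of those that did were lower in A, proteases excepted. Among 14 collagen chain genes 6 were lower with arrays lying apart (42.9%) and 0 were higher (median -0.09). For this list and those below, the shares over all features were 7.32% lower and 5.96% higher. Besides Col2a1 and Col6a1 these were Col1a2 (-0.37 ± 0.04), Col3a1 (-0.27 ± 0.06), Col4a2 (-0.17) and Col4a1 (-0.06, and -0.04 without M833 replicate 1). Col1a2 and Col1a1 encode the chains of collagen I, yet Col1a1 overlapped between the sets, at -0.33, -0.40, -0.03 and -0.04 in A and at -0.35, -0.14, -0.02 and 0.05 in B. For Col1a2 the values were -1.43, -1.45, -0.62 and -0.67 against -0.99, -1.05, -0.33 and -0.32.

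Of 23 matrix glycoproteins and proteoglycans 9 were lower (39.1%) and 1 was higher, with a median of -0.13. Mfap4, of elastic microfibrils (-0.38 ± 0.07), Fbln2, for fibulin 2 (-0.31 ± 0.08), the basement membrane nidogen genes Nid1 (-0.29) and Nid2 (-0.24) and the small proteoglycan gene Bgn (-0.23) were among the former. The laminin gene Lamb1 (0.14) was the one higher. The mean ratio of the 23 genes, -0.32, -0.32, -0.10 and -0.18 in A and -0.09, -0.16, -0.02 and -0.03 in B, did not overlap within a dye. Of 9 collagen-processing genes 2 were lower, Pcolce (-0.16) and Sparc (-0.08), and 0 higher, and after scaling 0 lay apart.

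Matrix proteases and their inhibitors differed both ways, with 4 of 15 higher and 5 lower, and their median of -0.07 turned to 0.01 after scaling. The gelatinase gene Mmp2 (-0.28 ± 0.03), the protease gene Adamts1 (-0.30 ± 0.05) and the serpin gene Serpinf1 (-0.35 ± 0.04) were lower, and the cathepsin gene Ctsd (0.23 ± 0.03) was higher. Of 9 fibroblast markers, 3 were lower in A (Col1a2, Col3a1 and Pdgfrb, the last at -0.25, or -0.15 without M833 replicate 5) and 0 higher.

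**Figure D3:**
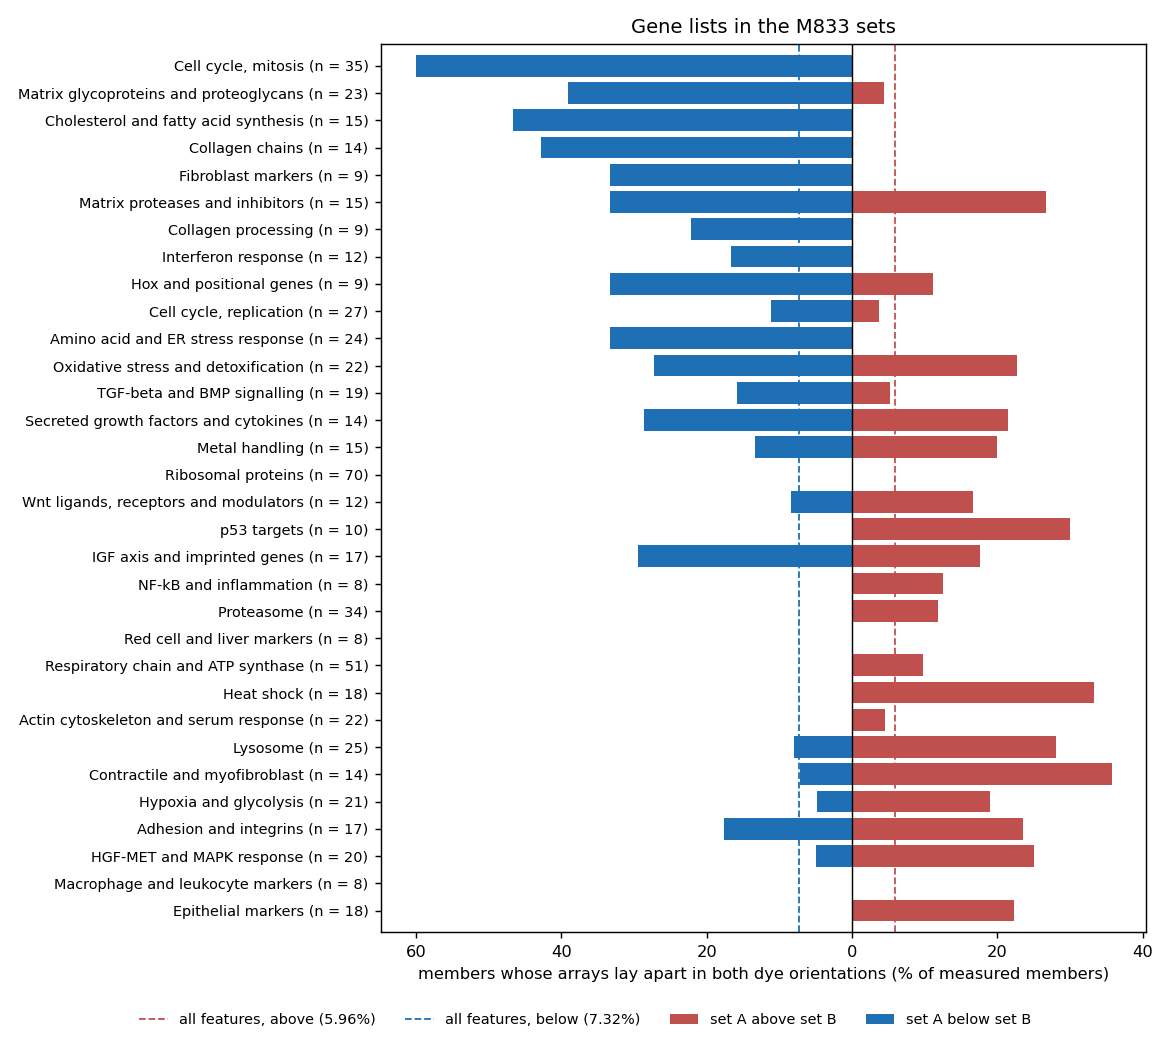
For each gene list with 8 or more measured genes, bars give the percentage of measured members higher (red, right) or lower (blue, left) in set A with arrays lying apart in both dye orientations, and dashed lines give the same over all features, 5.96% and 7.32%. Lists are ordered by their median difference, from mitosis at the top to epithelial markers at the bottom. Ribosomal, macrophage and red cell lists have no bar.

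Of 24 genes of the amino acid and ER stress response 8 were lower in A (33.3%, beside 7.32% of all features) and 0 higher. These 8 were Trib3, the transcription factor gene Atf4 (-0.34 ± 0.04), the mitochondrial folate enzyme gene Mthfd2 (-0.36 ± 0.06), Nupr1 (-0.29 ± 0.07), the serine synthesis genes Psph (-0.23) and Psat1 (-0.23), the amino acid transporter gene Slc3a2 (-0.16) and the disulfide isomerase gene Pdia6 (-0.09). Atf4, the master regulator of the amino acid response, was at 0.10, 0.01, -0.01 and 0.01 in A and at 0.39, 0.41, 0.26 and 0.40 in B. Among the 16 members that did not lie apart were the ER chaperone genes Hspa5 (-0.10), Hsp90b1 (-0.04) and Calr (0.02), the asparagine synthetase gene Asns (-0.08) and Phgdh (0.05). The mean of the 24 genes was 0.20, 0.19, 0.20 and 0.20 in A and 0.32, 0.26, 0.30 and 0.30 in B.

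Among 15 genes of cholesterol and fatty acid synthesis 7 were lower (46.7%) and 0 higher, with a median of -0.12. They included the desaturase gene Fads1 (-0.31 ± 0.08), the mevalonate pathway gene Mvd (-0.21 ± 0.05), the sterol oxidase gene Msmo1 (-0.20 ± 0.06), Fdft1 (-0.15) and the regulator gene Srebf1 (-0.12). The mean of the list was -0.30, -0.29, -0.32 and -0.28 in A and -0.19, -0.11, -0.26 and -0.18 in B. The sterol-responsive genes Hmgcs1 (-0.01) and Sqle (-0.04) did not lie apart.

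**Figure D4:**
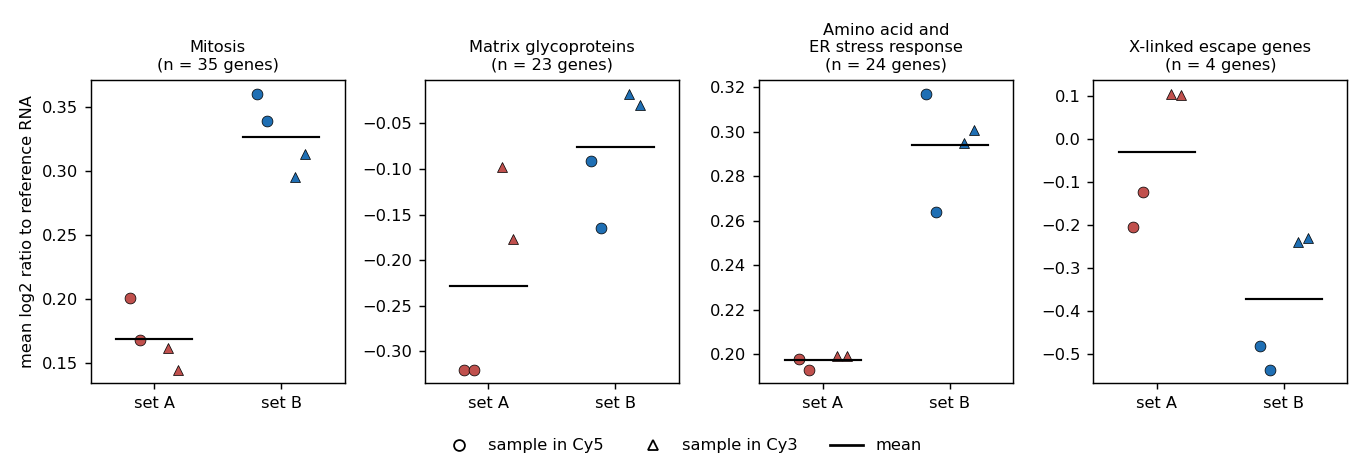
Each panel plots the mean log2 ratio to the reference over the genes of 1 list on the 8 M833 arrays, with circles for Cy5, triangles for Cy3 and a line at the mean of each set. Each axis has its own range. Set A lies below set B for mitosis (0.14 to 0.20 against 0.30 to 0.36) and the amino acid and ER stress response, above it for the X-linked escape genes, and below it within each dye for matrix glycoproteins.

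Several other groups leaned the other way. Of 18 epithelial markers 4 were higher in A (22.2%, beside 5.96% of all features) and 0 lower, with a median of 0.17. The 4 were Perp, Sfn, the keratin gene Krt18 (0.36 ± 0.10) and the protease inhibitor gene Spint2 (0.25 ± 0.05). The defining epithelial genes Cdh1 (0.15), Krt8 (0.17), Krt19 (0.17) and Epcam (-0.51 ± 0.59) did not lie apart. Epcam rested on M833 replicate 7, at -0.21 against -3.21 to -2.48 on the other 7 arrays, and its difference turned to 0.21 without that array. Cdh1 and Krt8 turned to -0.11 and -0.13 after scaling, and the list mean overlapped, at -1.72 to -1.61 in A and -2.14 to -1.57 in B. With the arrays scaled to one spread 1 epithelial marker lay apart and the median turned to -0.04. Both Sfn and Perp also stood in the list of p53 targets, of which 3 of 10 were higher in A and 0 lower. The third was Mdm2, which feeds back on p53 (0.14 ± 0.05, and 0.09 without M833 replicate 7).

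Of 18 heat shock genes 6 were higher and 0 lower, by small amounts of 0.06 (Dnaja1) to 0.17 (Hspa4l, 0.10 without M833 replicate 4). The letters GAANNTTC of the heat shock element were in 8 of 14 heat shock promoters (57.1%) and in 3 of 6 of members lying apart (50%), against 7.95% of all. Similar searches on both strands found the amino acid response element, TGATGNAAT, in 1 of 24 promoters of the amino acid and ER stress list (4.17%), against 0.969% of all. The sterol response element, TCACNCCAC, was in 1 of 11 promoters of the cholesterol list (9.09%) and in 0 of 5 of members lying apart, against 1.22%. Contractile genes counted 5 of 14 higher, among them Myl9 (0.20 ± 0.04), Cnn2 (0.19 ± 0.05) and Tpm1 (0.14 ± 0.05), and 1 lower, Smtn (-0.12). The lysosome list had 7 of 25 higher and 2 lower, with the tetraspanin gene Cd63 at 0.16 ± 0.04 and the protease gene Ctsh at -0.23 ± 0.05. Metallothioneins, which bind zinc and copper, were both higher: Mt1 by 0.38 ± 0.11 and Mt2 by 0.40 ± 0.05, within 3 of 15 metal-handling genes higher and 2 lower, or 1 and 1 after scaling.

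In the pathway named by the series title, 5 of 20 measured HGF-MET and MAPK response genes were higher in A and 1 was lower, with a median of 0.11 (3 higher and a median of 0.07 after scaling). The immediate early gene Ier3 was higher by 0.41 ± 0.08, Jun by 0.17 ± 0.07, the ubiquitin ligase gene Cbl by 0.16 ± 0.05 and the adhesion receptor gene Cd44 by 0.14 ± 0.06 (0.08 without M833 replicate 7). Adhesion genes counted 4 of 17 higher and 3 lower, with the integrin gene Itga9 at -0.36 ± 0.12. Detoxification genes were divided, with 5 of 22 higher and 6 lower. Among the latter were the epoxide hydrolase gene Ephx1 (-0.36 ± 0.07) and Prdx4 (-0.30 ± 0.04). Glycolytic and hypoxia genes counted 4 of 21 higher and 1 lower, the peptide hormone gene Adm (-0.12, and -0.07 without M833 replicate 8), with 1 higher after scaling.

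Among secreted growth factors and cytokines 3 of 14 were higher in A and 4 lower. The TAM receptor ligand gene Gas6 (-0.26 ± 0.07), the chemokine gene Cxcl12 (-0.23 ± 0.07) and the Kit ligand gene Kitl (-0.07, and -0.04 without M833 replicate 4) were lower with Ptn, while Sema3c (0.22 ± 0.05), Fgf10 (0.17) and Pdgfa (0.11) were higher. After centring or scaling 2 were lower. Rspo2 was the one Wnt gene of 12 lower in A, beside Dkk3 (0.22) and Ctnnb1 (0.11, and 0.07 without M833 replicate 5), which were higher, and its relative Rspo3 (0.02), which did not lie apart. Of 19 TGF-beta and BMP genes 3 were lower, Id2 (-0.27 ± 0.06), Fstl1 (-0.26 ± 0.05) and Tgfbi (-0.20 ± 0.06), and 1 was higher, the co-receptor gene Tgfbr3 (0.41 ± 0.07). The shares of Wnt genes lower (8.33%) and of TGF-beta and BMP genes higher (5.26%) were near those of all features, 7.32% and 5.96%.

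Imprinted and IGF genes took opposite sides. Of 17 measured, 3 were higher and 5 lower, or 1 and 6 after scaling, and the median of 0.01 turned to -0.09. Cdkn1c, expressed from the maternal copy, and the binding protein genes Igfbp3 (0.41 ± 0.06) and Igfbp4 (0.11, but -0.10 after scaling) were higher. The paternally expressed genes Mest (-0.40 ± 0.07), Dlk1 (-0.20) and Peg3 (-0.10) were lower, and so were the maternally expressed H19 (-0.16) and Grb10 (-0.23). Igf2, a neighbour of H19 with the opposite imprint, differed by 0.01.

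Housekeeping machinery differed little. Of 70 ribosomal protein genes 0 lay apart (median -0.006). Of 51 respiratory chain genes 5 were higher and 0 lower, and of 34 proteasome genes 4 and 0, shares of 9.80% and 11.8% beside 5.96% over all features. The respiratory count was 10 after centring and 1 after scaling, where the median went from 0.04 to -0.03. Cyc1, for cytochrome c1 (0.20 ± 0.06), and the proteasome gene Psmd8 (0.24 ± 0.05) had the largest differences of those lying apart. The actin and serum response list had Tpm1 alone of 22 higher (4.55%, near the 5.96% of all features), and 7 after scaling. The NF-kB list had Nfkbia (0.155) of 8 higher (12.5%), and 0 after scaling. In the interferon list Ifitm3 (-0.25 ± 0.07) and Oas1a (-0.11 ± 0.04) of 12 were lower (16.7%, beside 7.32%). Of 3 adipocyte markers the lipid droplet gene Plin2 (0.20) was higher, and of 3 cartilage and bone markers Col2a1 was lower.

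Of the 15 largest differences higher in A, 5 were of genes on the X chromosome (Eif2s3x, Kdm5c, Bex4, Erdr1 and Xlr3c), against 0 of the 15 lower. The X as a whole did not show this. Of its 214 measured genes 7.94% were higher and 9.81% lower, against 6.72% and 8.59% of 6830 autosomal genes. Eif2s3x, for a subunit of the translation factor eIF2, and Kdm5c, a histone demethylase gene, are known to be transcribed from both X chromosomes of female mouse cells. Eif2s3x was at 0.26, 0.24, 0.43 and 0.35 in A and at -0.32, -0.32, -0.05 and -0.18 in B, a difference of 0.54 ± 0.04 with no overlap. Kdm5c was at -1.21, -0.90, -0.17 and -0.30 in A and at -1.61, -1.53, -0.67 and -0.54 in B, 0.44 ± 0.08. These genes led to a look at others of their kind, chosen after values had been seen. The helicase gene Ddx3x was 0.17 ± 0.04 higher with arrays lying apart. Kdm6a differed by 0.21 ± 0.07 without lying apart, and its 3 probes did not share a sign. Xist, the RNA that coats the inactive X, was at 0.10, 0.07, 0.17 and 0.23 in A and at 0.09, 0.08, 0.10 and 0.30 in B, which did not separate the sets, and its 2 probes differed in sign. The Y-linked Eif2s3y was at -1.95, -1.88, -1.48 and -1.40 in A and at -1.91, -2.11, -1.66 and -1.69 in B, overlapping in Cy5.

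WT replicates 3, 4, 7 and 8 had likewise been seen to deviate from WT replicates 1, 2, 5 and 6. This split too came from the values. Over 12761 features the difference between A and B correlated with WT replicates 3, 4, 7 and 8 minus 1, 2, 5 and 6 with r = 0.263 and rho = 0.369. The points share the reference RNA and the probes. Of the features lying apart 1290 of 1695 (76.1%) had the same sign in both, against 62.9% of all features. Sfn was 2.50 higher and Alx1 1.14 higher in the first-named WT set, while Rspo2 (-1.89), Col6a1 (-1.92), Ptn (-1.61) and Mgp were lower, the sign of A minus B in each case. The mitotic list shared the sign, with a median of -0.45 between WT sets. Others did not: Xrcc1 was -0.35, Eif2s3x -0.39 and Kdm5c lower where A was higher, and Gpx3 was 0.61 where A was lower.

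M833 minus WT was tested over all 16 arrays with limma, a contrast that does not depend on how the M833 arrays are divided. Adjusted p was under 0.05 for 3301 features (25.9%), with 10% higher and 15.9% lower in M833. With the sets of 4 arrays as a random block this was 1465 features (11.5%), 4.40% higher and 7.08% lower. Without set A, 5.18% were higher and 8.02% lower, and without set B 5.48% and 9.08%. Of the features called in the fit without A or the fit without B, 1209 were called in both. A further 476 were called only without A and 649 only without B, which is no test of a difference between the sets. No label says that arrays came from separate cultures, so the p-values speak to variation between arrays alone, and that may be technical.

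Of the 30 genes with the largest differences between the sets, 9 were called between M833 and WT (30.0%), a share near that of all features, and 5 with the random block. For these genes the sets stood at different distances from WT, as their choice implies. That choice also largely fixes which set's removal costs a call. Leaving out a set also cut the calls over all features, from 3301 to 1685 without A and 1858 without B. The values without a set given here and below are therefore no test of a difference between the sets. Xrcc1 was higher in M833 by 0.57 ± 0.14 (SE; adjusted p = 0.00754; with the block, 0.0215), with set A at 0.91 and set B at 0.24 above the same WT arrays, and was not called without set A (adjusted p = 0.171). Col2a1 was higher by 0.97 ± 0.16 (adjusted p = 0.000424; with the block, 0.00509), at 0.65 in A and 1.28 in B, and was called with either set left out. Mgp was lower by -1.21 ± 0.26 (adjusted p = 0.00274; with the block, 0.00688), at -1.50 in A and -0.92 in B, and was not called without set A (adjusted p = 0.105). Trib3 was lower by -0.48 ± 0.13 (adjusted p = 0.0102; with the block, 0.0485), at -0.73 in A and -0.23 in B, and lost its call without set A (adjusted p = 0.262).

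Hoxb3 was higher in M833 by 0.30 ± 0.10 (adjusted p = 0.041; with the block, 0.117). Set B was 0.54 above WT and set A 0.05, and without set B adjusted p was 0.627. Plac9a (0.59, adjusted p = 0.0335) and Ppbp (-0.57, adjusted p = 0.036) likewise lost their calls without set B, and Aif1l (0.57, adjusted p = 0.0149) and Gpx3 (-0.79, adjusted p = 0.00717) without set A. With the block Plac9a, Ppbp and Gpx3 had adjusted p of 0.0649, 0.123 and 0.0824. Sfn (0.46 ± 0.47, adjusted p = 0.49), Ptn (-0.30 ± 0.30, adjusted p = 0.496), Rspo2 (-0.71 ± 0.36, adjusted p = 0.168), Col6a1 (-0.34 ± 0.36, adjusted p = 0.508) and Alx1 (0.24 ± 0.29, adjusted p = 0.56) were not called. Alx1 was 0.78 above the WT mean in A and 0.29 below it in B (-0.29). That mean lay between WT replicates 1, 2, 5 and 6, at -0.11, and WT replicates 3, 4, 7 and 8, at 1.03. The mean of B (0.17) was between these WT sets and that of A (1.24) above both.

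Some groups had medians on the same side of WT in both sets. The mitotic genes were higher in M833, 27 of 35 called and 0 lower, 25 with the block, with 24 called without set A and 16 without set B. The median was 0.48 in A and 0.61 in B over the same WT arrays, so A stood nearer to WT. The mean ratio of the list ran from -0.53 to 0.28 on WT arrays. All arrays of A (0.14 to 0.20) lay inside this range and those of B (0.30 to 0.36) above it. Between the WT sets the median difference was -0.45. Replication genes, 20 of 27 called higher, 17 with the block, 15 without set A and 13 without set B, had medians of 0.30 in A and 0.32 in B. Their mean ratio was -0.56 to -0.08 on WT arrays, a range that held all arrays of A (-0.17 to -0.11). The arrays of B, at -0.15 to -0.06, reached just beyond it. Amino acid and ER stress genes were lower in M833, 11 of 24 called and 0 higher, 8 with the block, with 6 without set A and 12 without set B. Their median was -0.18 in A and -0.12 in B, A being the farther from WT. Matrix glycoproteins, 9 of 23 called lower and 6 with the block, had medians of -0.32 and -0.24, with 2 called without set A and 6 without set B. The count without set A was near the 8.02% of all features called lower in that fit. Lysosome genes, 21 of 25 called lower and 20 with the block, had medians of -0.28 in A and -0.37 in B. The 8 macrophage markers, 7 called lower with and without the block, had medians of -0.80 and -0.87 and lay apart between the M833 sets in 0 cases.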

How the data were processed

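The deposited values were log2 ratios of 15247 probes on 16 arrays, normalised by the authors. The submitters' processing notes name limma without a version. For normalisation and filters the step was not given in the sources used here. Log base 2 was inferred from the range of values. Intensities were not used here, so dim probes were not filtered. There were 0 missing values. Per the labels' protocols RNA was extracted with Trizol. Probes were named through the old platform annotation: 9600 had 1 symbol, 214 several and 5433 none. Probes of a gene were averaged for 1810 genes.

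Set A minus set B was fitted on the 8 M833 arrays with dye orientation as a term (limma 3.58.1, R 4.3.3), giving a difference and standard error without a test. M833 minus WT was fitted on 16 arrays with dye as a term (lmFit, eBayes, Benjamini-Hochberg over all features, threshold 0.05), and again with sets of 4 arrays as a random block (duplicateCorrelation, correlation 0.324). The fits were run on simulated data with independent noise on each array, which does not test them under correlation within sets. The number of arrays limits precision. Replicates were numbered in series order and pair nothing.

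The sets, the gene lists (37 with 3 or more measured genes) and the named genes were chosen with earlier results of these data known. The text names 4 given markers, the 15 largest differences each way among genes lying apart, up to 4 members lying apart per list by size, and label markers. Other list members were named after their values were seen. Lists of X-linked genes were added after values were seen. Alternatives were centring, scaling, single probes, no dye term, 1 dye, leaving out arrays or sets, robust moderation and, chosen after seeing the data, ratios beyond 8 set missing. Promoters came from a RefSeq table.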

Additional observations from a re-analysis of the deposited data

Results flagged for a closer look

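Single arrays stood far from the rest of their group in 12 of 396 groups of 4 to 8 arrays checked, after adjustment for dye, a check that chance passes in about 1 group in 20. Gstm1 was at -1.531 on M833 replicate 1, against -0.837 to -0.305 on the other M833 arrays. Kif11 was at -0.900 on M833 replicate 2, against -0.020 to 0.433, and Olfr75-ps1 at -1.861 on M833 replicate 3, against -0.274 to 0.368. Epcam was at -0.373 on M833 replicate 7, against -3.374 to -2.312. The proteasome gene Psmd4 was at -0.098 on WT replicate 1, against 0.168 to 0.407. The sterol synthesis gene Sqle was at 1.191 on WT replicate 1, against -0.052 to 0.424, and Rspo3 at 3.979 on WT replicate 2, against 0.308 to 1.620. The mean of the NF-kB list was -0.633 on M833 replicate 8, against -0.546 to -0.479. WT replicate 2, the array with 49 ratios above 8, stood high for the mean of the Wnt list (0.703, others -0.162 to 0.123), of matrix glycoproteins (0.556, others 0.067 to 0.268) and of oxidative stress genes (0.326, others -0.192 to -0.032). WT replicate 1 stood high for the amino acid and ER stress list, at 0.485 against 0.423 to 0.451.

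For 12 named genes every array of one M833 set lay above the mean of the WT arrays of the same dye orientation, and every array of the other set below it. The difference between these effects was not tested, since the sets were chosen from the same values, and both effects share the WT arrays. Set A was higher and set B lower for Alx1 (0.776 and -0.290), Rgs17 (0.570 and -0.131), Eif2s3x (0.433 and -0.103), Kdm5c (0.364 and -0.076), Ier3 (0.227 and -0.186) and Tgfbr3 (0.160 and -0.251). Set A was lower and set B higher for Zc3hc1 (-0.402 and 0.159), Gstm1 (-0.294 and 0.167), Adamts1 (-0.204 and 0.094), Klf4 (-0.171 and 0.251), Prdx4 (-0.166 and 0.131) and Cxcl12 (-0.100 and 0.133). The WT mean joins WT replicates 1, 2, 5 and 6 with 3, 4, 7 and 8, which differed for several of these genes. Klf4 was at -0.330 and -1.278 in these WT sets, with the means of A (-0.974) and B (-0.553) between them. Both M833 means also lay between the WT sets for Gstm1 (-0.243 and -1.067), Adamts1 (0.749 and 0.072) and Ier3 (-0.095 and 1.090). For Cxcl12 (1.344 and 1.294) they lay outside them.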

How the results depend on the processing

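The count of 1695 features lying apart between the M833 sets was 4942 on Cy3 arrays alone and 4890 on Cy5 arrays alone, where only 1 orientation has to agree, and 515 without the dye term, where all 4 arrays of a set have to exceed all 4 of the other. Leaving out 1 array gave 2295 to 2638, since fewer arrays have to lie apart. Without the second run of slide numbers set B has no Cy3 array, so no count over both dyes could be made. Of the named genes lying apart, Bnip3l, at 0.063, turned to -0.019 and Igfbp4, at 0.108, to -0.096 when arrays were scaled to one spread. Scaling also turned M833 minus WT of Dlk1 from 0.219 to -0.220. Of genes not lying apart, several with small differences changed sign, and so did Epcam, to 0.214 without M833 replicate 7 and to 0.106 on Cy5 arrays, and Mki67, to 0.108 on Cy5 arrays. Scaling turned the median difference of the epithelial, respiratory chain, imprinted, Wnt, NF-kB and matrix protease lists, and of several marker lists of other cell types, such as the red cell and liver markers, from 0.03 to -0.47. The 3301 features called between M833 and WT became 1100 on Cy3 arrays, 835 on Cy5 arrays, 2000 without the dye term, 1465 with sets as a random block, 1685 without set A and 1858 without set B, against 2878 to 3295 with 1 array left out. The fits on 1 dye or without a set or an array hold fewer arrays. For the other fits, on all 16 arrays, the cause was not tested. No paired analysis was possible because the labels give no replicate numbers.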
